A study of Mus musculus with 6 samples.

Results

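C2C12 cells, a mouse myoblast line, were sequenced as a growing culture and after 4 h without nutrients, and the starved library is compared here with its fed control across the whole transcriptome. Both libraries came from cells given the same siRNA, called siNS in the labels. The control cells grew in DMEM with 10% fetal bovine serum and added glutamine and antibiotics, and are labelled with the strain C3H. The starved cells were rinsed in Hank's balanced salt solution and then kept for 4 h in that solution with 10 mM HEPES buffer and antibiotics. A further RNA library, from fed cells given siRNA against Foxk1, shares the same control and is not described here, nor are the ChIP-seq samples of Foxk1, Sin3A and input that complete the 6 samples of the series. The labels do not say how the cells relate between libraries, and a difference also carries the rinse and the change of medium.

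The comparison holds the 10960 rows, of 22989 in each table, that carry a single gene symbol, are not repeated or short RNAs by name, and reach 1 FPKM in at least 1 of the 2 libraries. FPKM is the number of fragments scaled to transcript length and to the mapped fragments of the library, so it can be compared between genes. Just inside that threshold stood A930012L18Rik at 0.538 FPKM fed and 1 starved, and just outside it Gm10509 at 0.857 FPKM fed and 0.999 starved. Of the rows compared, 172 reached 1 FPKM only in the control library and 266 only in the starved library.

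Each condition has 1 library, so no replicate spread, standard deviation or p-value can be given, and every difference below lacks a replicate check. The authors' 95% limits are the only measure of error: a gene is called apart, higher or lower, where the limits of its 2 libraries do not overlap. Such a call is about this pair of libraries, not about the conditions. The read depth is unknown. For rows at 5 FPKM or more the median distance from the mean to a limit was 17.6% of the mean in the control and 19.4% in the starved library. Log2 changes are log2 of starved FPKM + 1 over control FPKM + 1, which understates the change of low genes.

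Hank's solution supplies salts and glucose but neither amino acids nor serum, so cells in it lose amino acids and growth factors together. Uncharged tRNA activates the kinase GCN2, which phosphorylates eIF2alpha and raises translation of the transcription factor ATF4, the core of the integrated stress response. Loss of amino acids also turns off the kinase complex mTORC1, which releases autophagy and lysosome production, and loss of insulin and growth factor signals turns off AKT and ERK, which lets FoxO factors enter the nucleus and ends the expression of serum-induced genes. In muscle, these routes are known for the breakdown of protein during fasting and atrophy.

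Promoter stretches are shown for genes of 3 groups that the results turn on, because each group is known for a DNA element. Windows of 250 bases before to 50 after the start site, from RefSeq on GRCm38.p6, were matched by symbol for 8748 genes of the rows compared, and the motifs were searched on both strands. The composite element of C/EBP and ATF factors, TGATGNAA, through which ATF4 and CHOP act, was found in 7 of 24 promoters (29.2%) of the integrated stress response regulators, in 19 of 242 promoters (7.85%) of the genes at least 2-fold higher with limits apart and in 5 of 188 promoters (2.66%) of those at least 2-fold lower, beside 233 of 8748 promoters (2.66%) of all compared genes. The regulators are a list of known response genes, so their share is no independent evidence about the element. Capitals mark the match, which reads TTNCATCA where it lies on the other strand. Matches after or across the start site, such as those of Trib3 and Slc1a4, are counted and not printed.
Vldlr: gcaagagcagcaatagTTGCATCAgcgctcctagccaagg
Fgf21: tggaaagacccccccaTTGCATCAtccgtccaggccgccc
Nupr1: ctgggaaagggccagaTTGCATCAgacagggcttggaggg
Chac1: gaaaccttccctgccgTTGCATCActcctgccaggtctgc
Slc7a11: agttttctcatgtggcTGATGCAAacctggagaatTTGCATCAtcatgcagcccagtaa
Asns: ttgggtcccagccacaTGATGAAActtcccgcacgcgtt
These stretches lie at chr19:27216804-27216843 (plus strand) for Vldlr, chr7:45615606-45615645 (minus strand) for Fgf21, chr7:126625557-126625596 (minus strand) for Nupr1, chr2:119351033-119351072 (plus strand) for Chac1, chr3:50443637-50443695 (minus strand) for Slc7a11 and chr6:7693210-7693248 (minus strand) for Asns, all upstream of the start site. The 6 genes were chosen among those at least 2-fold higher in the starved library, which are 2.9% of all rows compared. Slc7a11 carried a pair of matches, one on each strand.

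The CArG box, the element that the serum response factor SRF binds, was found in 12 of 34 promoters (35.3%) of the SRF and MRTF cytoskeletal targets, a list whose known members were partly defined by that box. It was present in 6 of 188 promoters (3.19%) of genes at least 2-fold lower with limits apart, in 4 of 242 promoters (1.65%) of those at least 2-fold higher, and in 143 of 8748 promoters (1.63%) of all compared genes. The capitals mark the boxes of 5 genes chosen among those at least 2-fold lower, which are 2.46% of all rows compared.
Dusp5: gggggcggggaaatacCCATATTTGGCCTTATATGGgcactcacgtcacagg
Egr2: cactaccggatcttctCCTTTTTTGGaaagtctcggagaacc
Cnn2: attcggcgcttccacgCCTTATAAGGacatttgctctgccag
Actg1: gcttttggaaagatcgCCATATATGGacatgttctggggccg
Srf: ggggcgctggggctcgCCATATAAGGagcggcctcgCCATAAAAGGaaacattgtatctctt
They lie at chr19:53529047-53529098 (plus strand) for Dusp5, chr10:67537478-67537519 (plus strand) for Egr2, chr10:79988528-79988569 (plus strand) for Cnn2, chr11:120348560-120348601 (minus strand) for Actg1 and chr17:46556199-46556260 (minus strand) for Srf. In the stretches printed, Dusp5 and Srf each held 2 boxes, which in Dusp5 stand next to each other. A further box of Egr2, in the windows of its other start sites, is not printed.

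The forkhead motif GTAAACA, shared by FoxO and Foxk factors, was found in 28 of 242 promoters (11.6%) of the genes at least 2-fold higher with limits apart, in 7 of 188 promoters (3.72%) of those at least 2-fold lower and in 265 of 8748 promoters (3.03%) of all compared genes. Among all genes with limits apart, at any fold, it was in 60 of 1055 promoters (5.69%) of the higher and 25 of 957 (2.61%) of the lower ones. Of the 28 genes, 4 belong to the FoxO list. The others are mixed and include Atp5sl, Bbc3, Fcgrt, Fetub, Klf9, Mxi1, Sesn1, Slc7a11, Thap3 and Zfp874b. The FoxO list, which holds known targets, had the motif in 4 of 22 promoters (18.2%). Its share was similar, 4 of 24 promoters (16.7%), among p53 targets and the Gadd45 family. The capitals mark the motif in 3 members of the FoxO list.
Txnip: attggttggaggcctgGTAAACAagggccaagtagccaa
Bcl2l11: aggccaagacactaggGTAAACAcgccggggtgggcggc
Hbp1: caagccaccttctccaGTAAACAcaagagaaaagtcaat
These lie at chr3:96557820-96557858 (plus strand) for Txnip, chr2:128125795-128125833 (plus strand) for Bcl2l11 and chr12:31950372-31950410 (minus strand) for Hbp1. A match of letters is a description and no binding site. Whether these motifs bear on the changes was not tested.

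Over all rows compared, 1367 were higher in the starved library with limits apart, 12.5% of those tested, and 1223 were lower, 11.2%. The counts of list members given below are to be read beside these shares. At a fold of 2 or more, 318 rows (2.9%) were higher and 270 (2.46%) lower, and 315 and 262 of them had limits apart. Changes of 4-fold or more with limits apart were found in 28 rows that were higher and 30 that were lower. The median log2 change of all rows was -0.01, and the central 90% lay between -0.76 and 0.83. Rows with a mean of 100 FPKM or more were higher in 4.87% and lower in 15% of cases, whereas rows with a mean under 2 FPKM were higher in 15.4% and lower in 9.34%, so the shares of higher and lower rows moved with the level. Rescaling the starved library by the median ratio or the upper quartile shifts log2 changes by up to 0.04 or 0.05, and by less in low genes, and the calls named below that this ends are given as such.

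**Figure D1:**
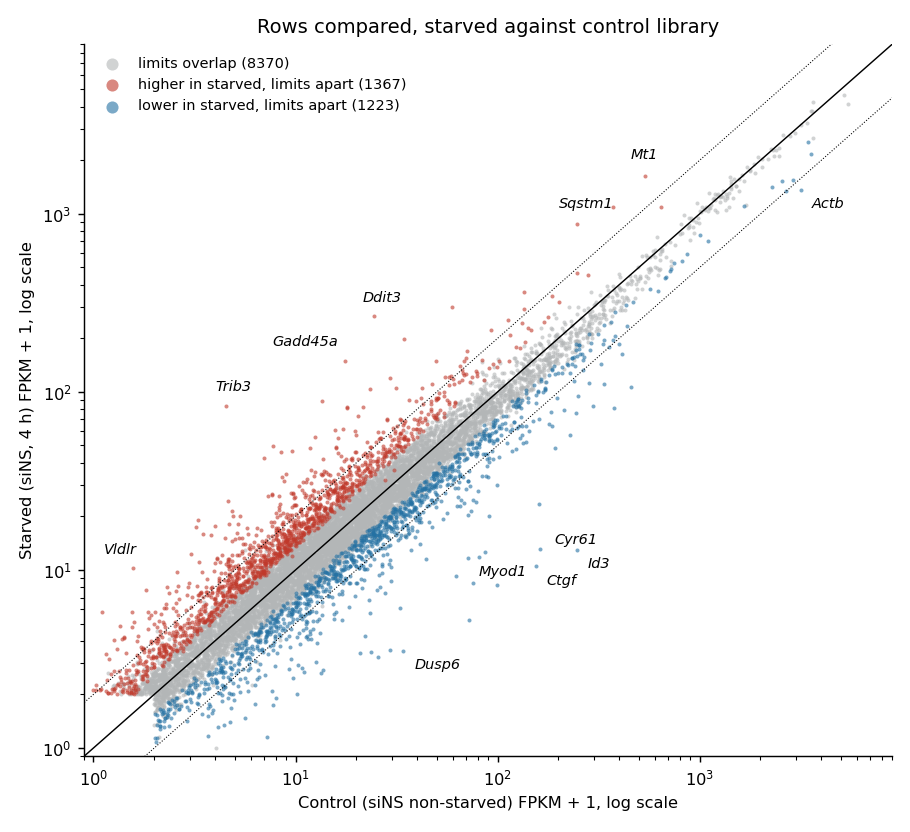
Each point is 1 of the 10960 rows, with FPKM + 1 in the control library on the horizontal and in the starved library on the vertical axis, both on log scales. The solid line marks equal values and the dotted lines a 2-fold difference, and red (1367) and blue (1223) points are rows whose 95% limits do not overlap.

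The 15 rows with the highest log2 changes, among those with limits apart and at least 5 FPKM in 1 library, ran from Trib3 at 4.21 to Dtx4 at 2.19. Trib3, Ddit3, Vldlr, Slc6a9 and Nupr1 among them belong to the amino acid response, and Gadd45a, Txnip and Fbxo32 are known FoxO targets. Klhl24, a ubiquitin ligase adaptor, stood at 6.76 FPKM (5.12 to 7.46) fed and 48.5 FPKM (34.7 to 51.8) starved. Crebrf, a regulator of the unfolded protein response and of energy balance, stood at 2.3 FPKM fed and 18.1 FPKM starved. Ndrg1, a stress and hypoxia gene, stood at 33.6 FPKM fed and 197 FPKM starved. These genes cover several programs, and so do the next ones. Acot2, a mitochondrial thioesterase of fatty acids, was at 2.2 FPKM fed and 16.5 FPKM starved, and Maf, a transcription factor, at 3.62 FPKM fed and 23.3 FPKM starved. Dtx4, a regulator of Notch signalling, was at 2.49 FPKM fed and 14.9 FPKM starved, and the noncoding row E230016M11Rik at 5.99 FPKM fed and 41.4 FPKM starved.

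The 15 rows with the lowest log2 changes ran from Id3 at -4.26 to Spry4 at -2.64. All 3 of Id1, Id2 and Id3, 5 inhibitors or targets of ERK signalling (Dusp5, Dusp6, Errfi1, Spry4 and Phlda1), and the matricellular genes Ctgf and Cyr61 were among them. Sema7a, a membrane-bound semaphorin, stood at 70.8 FPKM (61 to 80.7) fed and 4.23 FPKM (3.44 to 5.03) starved. Hmga2, a chromatin architectural protein of growing cells, stood at 86.1 FPKM fed and 11.6 FPKM starved. Chst2, a sulfotransferase of glycans, stood at 28.4 FPKM fed and 2.54 FPKM starved. The limits of these 3 genes were apart.

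The largest differences on the FPKM scale itself were found mostly in other genes, although Ddit3 and Nupr1 were among them too. Actb, cytoplasmic beta-actin, was lower by the most, at 3186 FPKM fed and 1355 starved. The thymosins Tmsb10 and Tmsb4x, which bind actin monomers, were at 3544 FPKM fed and 2174 starved and at 2567 FPKM fed and 1523 starved, both lower with limits apart. The metallothionein Mt1, which binds zinc and copper, was higher by the most, at 533 FPKM fed and 1638 FPKM starved, and Mt2 was at 374 FPKM fed and 1095 FPKM starved. The autophagy receptor Sqstm1 followed at 246 FPKM fed and 878 FPKM starved. In both libraries the deposited mean of Mt1, of Mt2 and of Tmsb4x lay outside its own limits, as it did in at least 1 library for 356 of the rows compared, 35 of which had limits apart.

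Among the regulators of the integrated stress response 13 of 27 members were higher and 3 lower with limits apart, and the median log2 change was 0.63. Ddit3, which encodes the factor CHOP, was at 23.4 FPKM (13.3 to 33.4) fed and 266 FPKM (181 to 313) starved. Trib3, a pseudokinase that restrains ATF4 and AKT, was at 3.53 FPKM (2.74 to 4.31) fed and 82.7 FPKM (67.2 to 97.4) starved. Their starved limits lay well above the fed ones. Fgf21, a hormone of fasting, was barely present at 0.0986 FPKM fed and stood at 4.83 FPKM starved. Chac1, which degrades glutathione, was at 11.6 FPKM fed and 54.8 FPKM starved, and Nupr1, a chromatin-associated stress protein, at 58.5 FPKM fed and 298 FPKM starved. The factors that act with ATF4 had smaller differences: Cebpb was at 46.2 FPKM fed and 109.7 FPKM starved, Atf5 at 91.6 FPKM fed and 222 FPKM starved, and Cebpg had a log2 change of 1.29. The kinases that phosphorylate eIF2alpha were not higher with limits apart. Eif2ak4, which encodes GCN2, was at 7.57 FPKM fed and 5.78 FPKM starved and Eif2ak3, which encodes PERK, at 8.56 FPKM fed and 10.9 FPKM starved, both with overlapping limits. Eif2ak2, which encodes the double-stranded RNA kinase PKR, was lower with limits apart at 10.6 FPKM fed and 7.36 FPKM starved. Members of the Tribbles family differed in direction: Trib3 was higher, whereas Trib1 was at 9.14 FPKM fed and 4.33 FPKM starved and Trib2 at 2.68 FPKM fed and 0.163 FPKM starved, both lower with limits apart.

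Among enzymes of amino acid synthesis and breakdown, 12 of 33 members were higher and 4 lower with limits apart, and the median log2 change was 0.22. Gpt2, the mitochondrial alanine aminotransferase, was at 22.4 FPKM (19.3 to 25.5) fed and 103 FPKM (85.5 to 121) starved. Glul, which makes glutamine, was at 35.4 FPKM fed and 88.5 FPKM starved, and Asns, which makes asparagine, at 64 FPKM fed and 139 FPKM starved. Gpt2 takes nitrogen from glutamate, and Asns takes it from glutamine. The serine pathway showed smaller differences, with Psph at 20.3 FPKM fed and 30.8 FPKM starved (limits apart). The limits of Phgdh, at 164 FPKM fed and 202 starved, and Psat1, at 164 FPKM fed and 228 starved, overlapped, and those of Psat1 were apart after rescaling by the upper quartile. Of the mitochondrial folate enzymes, Mthfd2 was at 56.6 FPKM fed and 121 FPKM starved and Aldh1l2 at 13.4 FPKM fed and 33.5 FPKM starved, while the cytosolic Mthfd1 was lower at 28.9 FPKM fed and 20.1 FPKM starved. Bckdha, a subunit of the complex that breaks down branched-chain amino acids, was higher with a log2 change of 1.08, and Bckdk, the kinase that inhibits that complex, was lower with a log2 change of -0.70. The lowest member was Mat2a, which makes S-adenosylmethionine, at 89.8 FPKM (69.6 to 103) fed and 19 FPKM (12.3 to 21.3) starved.

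No amino acid transporter was lower with limits apart: 11 of 24 members were higher and 0 lower with limits apart, and the median log2 change was 0.42. Slc6a9, a glycine transporter, was at 7.49 FPKM (5.41 to 9.55) fed and 44.7 FPKM (36.3 to 53.1) starved. Slc7a11, the cystine carrier, was at 0.346 FPKM (0.23 to 0.425) fed and 3.85 FPKM (2.68 to 4.37) starved. The limits of both were apart, those of Slc7a11 at low levels. The neutral amino acid carriers Slc38a2 and Slc1a4 were at 112 FPKM fed and 254 starved and at 13.6 FPKM fed and 30.6 starved. Slc7a5 and its partner Slc3a2, which form the leucine exchanger, were at 67.4 FPKM fed and 149 starved and at 53.3 FPKM fed and 93.5 starved, higher with limits apart. Slc38a7, a lysosomal glutamine exporter, stood at 12.7 FPKM fed and 41.1 FPKM starved and Slc36a1, a lysosomal proton-coupled carrier, at 5.74 FPKM fed and 8.74 FPKM starved, so higher members were found at both the plasma membrane and the lysosome. The lowest value was that of Slc7a6, at 14.5 FPKM fed and 8.79 FPKM starved, with overlapping limits.

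The enzymes that charge tRNA with amino acids differed in both directions. Of the cytosolic synthetases and their scaffold proteins, 7 of 21 were higher and 4 lower with limits apart (median 0.24), and of the mitochondrial ones 2 of 17 were higher and 1 lower (median -0.21). The mitochondrial shares, 11.8% higher and 5.88% lower, are not above the 12.5% and 11.2% of all rows. After either rescaling 0 of the mitochondrial ones were lower, and among those at 5 FPKM or more 1 was higher and 0 lower. The seryl synthetase Sars was at 66.1 FPKM fed and 127 FPKM starved and the isoleucyl synthetase Iars at 48.9 FPKM fed and 90.2 FPKM starved. Among the lower ones were the scaffold Aimp2 at 43.4 FPKM fed and 25.7 FPKM starved and Eef1e1 at 38.1 FPKM fed and 21.6 FPKM starved, both parts of the multisynthetase complex. Farsa and Hars were lower as well, and the limits of Hars overlapped under both rescalings and those of Aimp2 under that by the upper quartile. The composite element TGATGNAA was present in 4 of 14 promoters (28.6%) of the cytosolic group and in 0 of 14 promoters (0%) of the mitochondrial group.

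**Figure D2:**
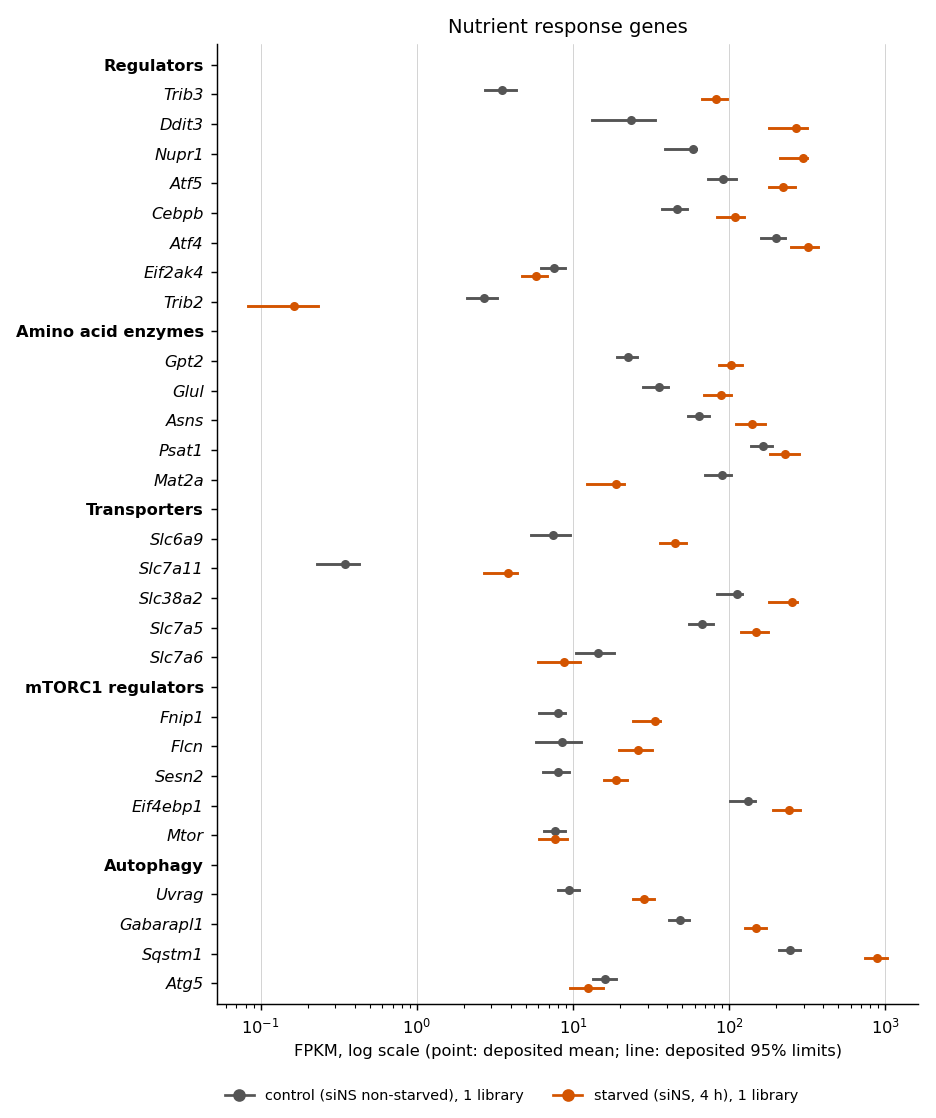
FPKM on a log scale for 27 genes of the amino acid response, mTORC1 control and autophagy, with the deposited mean as a point and the deposited 95% limits as a line. Trib3, Ddit3, Gpt2, Slc6a9 and Fnip1 are well to the right in the starved library (orange), Trib2 and Mat2a to the left, and Mtor, Eif2ak4 and Atg5 overlap.

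Several genes that regulate mTORC1 were higher, while its core had overlapping limits. In the list of mTORC1, Rag, GATOR and folliculin genes 14 of 41 members were higher and 2 lower with limits apart, and the median log2 change was 0.18. The folliculin complex, which activates the RagC and RagD GTPases, was higher in all of its members: Fnip1 was at 7.98 FPKM (6.06 to 8.82) fed and 33.6 FPKM (24.3 to 36.1) starved, Flcn at 8.54 FPKM fed and 25.9 FPKM starved and Fnip2 at 3.67 FPKM fed and 9.51 FPKM starved. The sestrins, which hold mTORC1 inactive when leucine is short, were also higher, with Sesn1 at 10.7 FPKM fed and 23.9 FPKM starved, Sesn2 at 7.96 FPKM fed and 18.9 FPKM starved and Sesn3 at 9.75 FPKM fed and 27.2 FPKM starved. Tsc1, part of the complex that turns off Rheb, was at 5.23 FPKM fed and 13.3 FPKM starved, and Eif4ebp1, the translation repressor that mTORC1 phosphorylates, at 131 FPKM fed and 243 FPKM starved. Each of these had limits apart. The GTPase Rragc was higher as well at 46.1 FPKM fed and 84.3 FPKM starved, and Sec13, a GATOR2 subunit shared with vesicle coats, was lower at 126 FPKM fed and 83.8 FPKM starved, with limits that overlapped after rescaling. Of the core, Mtor was at 7.7 FPKM fed and 7.63 FPKM starved and Rptor at 16.3 FPKM fed and 14.4 FPKM starved, limits overlapping. The S6 kinases were at 16.8 FPKM fed and 12.7 FPKM starved for Rps6kb1 (limits overlapping) and 13.1 FPKM fed and 8.75 FPKM starved for Rps6kb2, whose limits were apart as deposited and overlapped after rescaling.

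Some autophagy genes were higher. For initiation and the PI3K complex, 8 of 22 members were higher and 0 lower with limits apart, and the median log2 change was 0.40. Uvrag, a subunit of a class III PI3K complex, was at 9.44 FPKM (7.97 to 10.9) fed and 28.6 FPKM (24.1 to 33.1) starved, and Atg14, the subunit of the complex that starts autophagosomes, at 4.11 FPKM fed and 11.1 FPKM starved. Rb1cc1, the scaffold FIP200 of the ULK complex, was at 12.5 FPKM fed and 27 FPKM starved, and the kinase Ulk1 at 12.1 FPKM fed and 20.9 FPKM starved. Becn1, the shared subunit of the PI3K complexes, was not higher, at 42 FPKM fed and 36.4 FPKM starved with overlapping limits. Of the ATG8 proteins and the enzymes that attach them to lipid, 2 of 15 were higher and 0 lower. The 13.3% that were higher is near the 12.5% of all rows. The higher ones were the ATG8 genes Gabarapl1, at 48.3 FPKM (41.2 to 55.5) fed and 149 FPKM (126 to 172) starved, and Map1lc3b, at 67.3 FPKM fed and 124 FPKM starved. The conjugation enzymes Atg3, Atg5 and Atg7 were at 28.9 FPKM fed and 25.6 starved, 16.1 FPKM fed and 12.6 starved and 9.3 FPKM fed and 9.91 starved, all with overlapping limits.

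Of the receptors that carry cargo into autophagosomes, 6 of 18 members were higher and 1 lower with limits apart, and the median log2 change was 0.41. Sqstm1, the receptor p62 for ubiquitinated cargo, was at 246 FPKM (209.9 to 283) fed and 878 FPKM (738 to 1018) starved. Stbd1, which binds glycogen, was at 20.6 FPKM fed and 81.1 FPKM starved, and Nbr1, a relative of p62, at 23.9 FPKM fed and 51.5 FPKM starved. Calcoco1 was at 27.4 FPKM fed and 69.9 FPKM starved, and the mitophagy receptor Bnip3 at 24.6 FPKM fed and 41.6 FPKM starved. The exception was Bag3, a chaperone partner in muscle autophagy, lower at 47 FPKM fed and 34.2 FPKM starved, with limits that overlapped after rescaling.

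Lysosomal genes had higher values, many with limits apart. Of the hydrolases and membrane proteins, 18 of 46 members were higher and 0 lower with limits apart, and the median log2 change was 0.45. Ctns, the cystine exporter, was at 3.33 FPKM (2.47 to 4.16) fed and 11.2 FPKM (8.3 to 13.5) starved. Galc, which degrades galactolipids, was at 10.04 FPKM fed and 26.1 FPKM starved, and Hexa, a subunit of beta-hexosaminidase, at 37.6 FPKM fed and 69.3 FPKM starved. The most abundant members showed smaller differences. Cd63 was at 1359 FPKM fed and 1253 FPKM starved, Psap at 396 FPKM fed and 460.1 FPKM starved and Lamp1 at 289 FPKM fed and 364 FPKM starved, all with overlapping limits, and the list's summed level was 3590.1 FPKM fed and 4110.5 FPKM starved. Of the proton pump subunits, 6 of 16 were higher and 1 lower, led by Atp6ap2 at 33.6 FPKM fed and 65.8 FPKM starved and Atp6v1g1 at 184 FPKM fed and 345 FPKM starved, while the membrane subunit Atp6v0a2 was lower at 15.7 FPKM fed and 9.14 FPKM starved. The mean of Atp6ap2 lay outside its own limits in both libraries. Transcripts of the factors that control lysosomal genes had overlapping limits, with Tfe3 at 28.4 FPKM fed and 31.4 FPKM starved and Tfeb at 4.42 FPKM fed and 4.01 FPKM starved. The CLEAR element core TCACGTGA that these factors bind was present in 4 of 36 promoters (11.1%) of the hydrolase list and in 3 of 11 promoters (27.3%) of the pump list, beside 196 of 8748 promoters (2.24%) of all compared genes. The composite element TGATGNAA was in 4 of 36 (11.1%) and 1 of 11 (9.09%) of them, beside 2.66% of all. Both lists hold known lysosomal genes, so the CLEAR shares are a description and no test of that element.

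FoxO factors and their known targets had the highest median log2 change, 0.99, of the lists with at least 10 members compared. In this list, which counts the factors too, 19 of 26 members were higher and 0 lower with limits apart. Gadd45a, a stress and atrophy gene, was at 16.5 FPKM (12.5 to 20.4) fed and 149 FPKM (118 to 179) starved. Txnip, an alpha-arrestin that restrains glucose uptake, was at 12.5 FPKM (10.6 to 14.3) fed and 87.6 FPKM (72.2 to 103) starved. Pik3ip1, an inhibitor of PI3K, was at 3 FPKM fed and 16.6 FPKM starved, and the insulin receptor Insr and its substrate Irs2, which FoxO factors raise in feedback, were at 4.82 FPKM fed and 10.2 starved and at 3.17 FPKM fed and 7.53 starved. Among targets that slow the cell cycle or promote death, Ccng2 was at 17 FPKM fed and 80.2 FPKM starved, the CDK inhibitor Cdkn1b at 27.3 FPKM fed and 68.8 FPKM starved and the BH3-only gene Bcl2l11 at 4.34 FPKM fed and 19 FPKM starved. Of the factors themselves, Foxo3, Foxo4 and Foxo6 were higher with log2 changes of 1.39, 0.58 and 1.14, while the limits of Foxo1 overlapped (log2 change 0.31). The lowest members, Cited2 at 218 FPKM fed and 159 FPKM starved and Tle1 at 13.5 FPKM fed and 9.93 FPKM starved, had overlapping limits.

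A part of the ubiquitin ligases of muscle atrophy was higher. Of 20 members compared, including ubiquitin genes, 6 were higher and 0 lower. Fbxo32, the ligase atrogin-1 of wasting muscle, was at 8.59 FPKM (7.1 to 9.97) fed and 45.8 FPKM (37.1 to 54) starved. Fbxo31 was at 4.65 FPKM fed and 12.9 FPKM starved, and Cblb, a ligase for IRS1, at 7.98 FPKM fed and 13.5 FPKM starved. Trim63, the ligase MuRF1 usually induced with atrogin-1, stayed below the threshold at 0.0979 FPKM fed and 0.292 starved. The proteasome degrades what these ligases mark, and its values were mostly lower: 0 of 40 subunits and assembly factors were higher and 7 lower, with a median of -0.30, and 3 members had a log2 change above 0. After either rescaling 4 were lower. The 17.5% that were lower as deposited stands beside 11.2% of all rows. It also stands beside 12.3% of rows with a mean of 20 to 100 FPKM and 15% of those at 100 FPKM or more. The lid subunit Psmd7 was lowest, at 87.6 FPKM fed and 43.9 FPKM starved, and Psmd13 was at 75 FPKM fed and 44.2 FPKM starved.

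**Figure D3:**
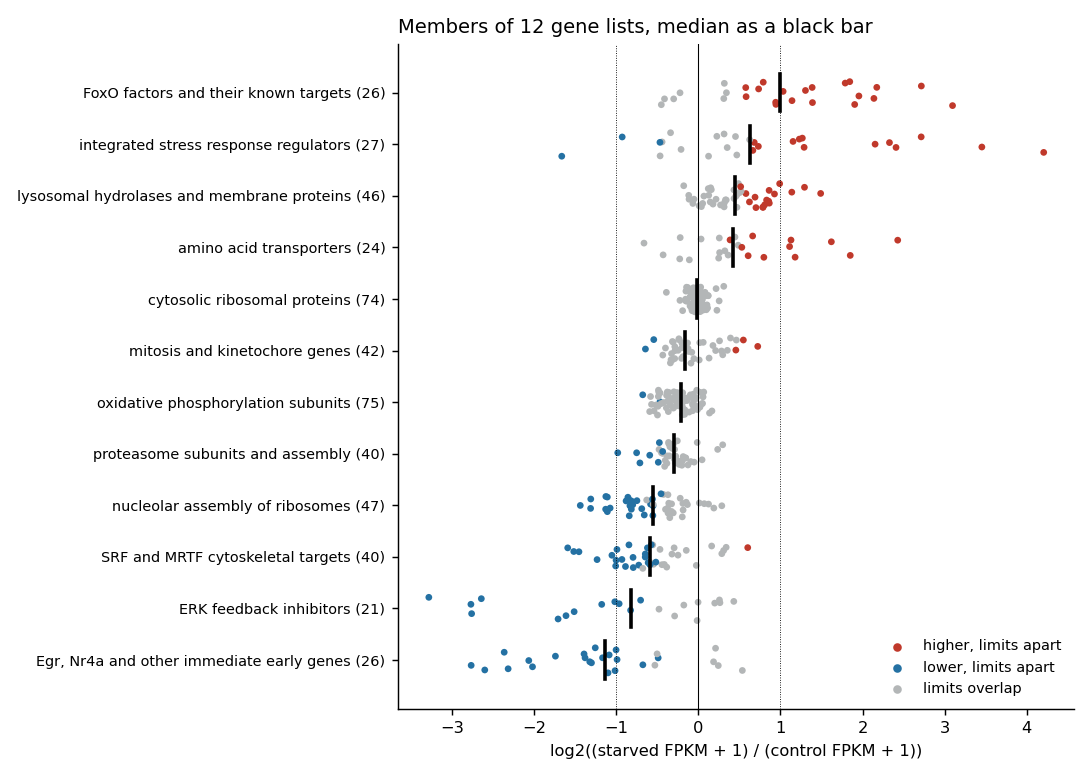
Each point is a member of 1 of 12 lists, placed by its log2 change, with the median as a black bar, limits apart in red (higher) or blue (lower) and overlapping limits in grey. Ribosomal proteins sit close to 0 with no member apart, FoxO targets reach 3.10 and ERK feedback genes -3.28.

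Many genes that serum and growth factors induce were lower. Of the Egr, Nr4a and other immediate early genes, 20 of 26 were lower and 0 higher with limits apart, with a median of -1.13. Egr1, the early growth response factor, was at 62.8 FPKM (51.8 to 72.4) fed and 24.5 FPKM (19.7 to 29.3) starved, and its relatives Egr2 and Egr3 were at 7 FPKM fed and 0.911 starved and at 12.7 FPKM fed and 1.74 starved. The EGF receptor ligands Hbegf, Areg and Ereg were at 19.8 FPKM fed and 2.43 starved, 22.4 FPKM fed and 4.76 starved and 11.2 FPKM fed and 3.65 starved. Phlda1, a growth factor response gene, was at 159 FPKM fed and 22.5 FPKM starved, and the nuclear receptor Nr4a1 at 8.31 FPKM fed and 1.79 FPKM starved. The limits of each of these genes were apart. Mcl1 and Nfkbia, early genes linked to survival and NF-kappaB, were not lower, at 61.3 FPKM fed and 71.1 starved and 29 FPKM fed and 34.5 starved with overlapping limits.

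Inhibitors that ERK signalling induces against itself formed a list with 12 of 21 members lower, 0 higher and a median of -0.82. Dusp6, a phosphatase that acts on ERK in the cytoplasm, was at 33.2 FPKM (26 to 37.5) fed and 2.51 FPKM (1.81 to 3.18) starved. Dusp5, which acts on nuclear ERK, was at 22.6 FPKM (18.5 to 26.6) fed and 2.45 FPKM (1.81 to 3.1) starved. Dusp4 was at 77.4 FPKM fed and 23 FPKM starved, whereas Dusp10 and Dusp16, which act mainly on JNK and p38, were at 31.6 FPKM fed and 42.9 starved and 6.79 FPKM fed and 7.95 starved with overlapping limits. Of the Sprouty genes, Spry4 was at 6.23 FPKM (5.01 to 7.37) fed and 0.158 FPKM (0.084 to 0.237) starved, Spry2 at 39 FPKM fed and 18.8 FPKM starved and Spry1 at 1.36 FPKM fed and 0.334 FPKM starved. All 3 Spred genes were lower with limits apart, Spred1 at 35.4 FPKM fed and 15.1 FPKM starved. Errfi1, which inhibits EGF receptors, was at 61.6 FPKM fed and 8.23 FPKM starved.

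The AP-1 family was split. Fosl1 was at 24.6 FPKM (17.7 to 31.5) fed and 2.25 FPKM (1.11 to 3.39) starved, and Fos, already low in the fed cells, at 1.98 FPKM fed and 0.624 FPKM starved. Junb was lower at 122 FPKM fed and 86.9 FPKM starved, Jun and Jund were at 76.7 FPKM fed and 64.9 starved and 142 FPKM fed and 125 starved with overlapping limits, and Fosl2 and Atf2 were higher at 15 FPKM fed and 24.1 starved and 16.7 FPKM fed and 26.9 starved. The Kruppel-like factors were split as well, with 5 of 12 higher and 3 lower. Klf11, Klf4 and Klf9 were at 6.35 FPKM fed and 24.9 starved, 40.8 FPKM fed and 92 starved and 4.89 FPKM fed and 11.4 starved. Klf5 and Klf2 were at 46.6 FPKM fed and 23.7 starved and 44.1 FPKM fed and 29.5 starved, both lower with limits apart.

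Targets of YAP and TEAD, the factors that read cell tension and density, were lower in a few members by large amounts. Ctgf was at 154 FPKM (124 to 177) fed and 9.46 FPKM (7.33 to 11.3) starved, and Cyr61, a matricellular protein of the same family, at 161 FPKM (131 to 188) fed and 12 FPKM (9.6 to 14.3) starved. Ankrd1, a nuclear muscle protein, was at 455 FPKM fed and 105 FPKM starved. Over the list, 3 of 28 members were higher and 9 lower with limits apart, and the median log2 change was -0.26. The factors Yap1 and Wwtr1 were at 32.8 FPKM fed and 28 starved and 51.2 FPKM fed and 41.1 starved with overlapping limits, and F3, tissue factor, was higher at 11.2 FPKM fed and 22.2 FPKM starved.

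Actin and its partners, targets of SRF and its coactivators MRTF, were lower more often than higher: 22 of 40 were lower and 1 higher, with a median of -0.59. Their summed level was 15454 FPKM fed and 8954 FPKM starved. Of the lower calls, those of Myl6, Tagln and Tagln2 ended after either rescaling. That of Tpm4 ended after rescaling by the upper quartile. Actb was at 3186 FPKM (2461 to 3619) fed and 1355 FPKM (1021 to 1557) starved, Actg1 at 2689 FPKM fed and 1338 FPKM starved and smooth muscle actin Acta2 at 333 FPKM fed and 110.03 FPKM starved. Srf itself was at 34.6 FPKM fed and 16.8 FPKM starved. Wdr1, which promotes disassembly of actin filaments, was at 184 FPKM fed and 63.6 FPKM starved, and vinculin, Vcl, at 154 FPKM fed and 85.2 FPKM starved. Other large filament proteins showed less, with Flna at 296 FPKM fed and 267 FPKM starved and Myh9, a non-muscle myosin, at 325 FPKM fed and 259.7 FPKM starved, both overlapping. The exception was Tln2, a talin, higher at 8.99 FPKM fed and 14.2 FPKM starved.

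The Id genes, which block myogenic and other basic helix-loop-helix factors and are induced by BMP signals, had the lowest log2 changes of their list. Over that list of Id, BMP and Smad genes, 1 of 25 members was higher and 6 lower with limits apart (2 higher after rescaling by the upper quartile). The median log2 change of the list was -0.004, and 12 members were above 0. Id3 was at 246 FPKM (181 to 259) fed and 11.9 FPKM (8.35 to 13.8) starved. Id1 was at 98.5 FPKM fed and 7.27 FPKM starved and Id2 at 74.8 FPKM fed and 7.47 FPKM starved. Grem1, a secreted BMP inhibitor, was at 296 FPKM fed and 82 FPKM starved, and the inhibitory Smad7 at 10.8 FPKM fed and 4.78 FPKM starved. The receptors and receptor Smads of the list mostly had overlapping limits, Smad1 at 22.9 FPKM fed and 18.5 FPKM starved. Smad3, a receptor Smad of TGF-beta and not of BMP signals, was higher at 14.2 FPKM fed and 26.7 FPKM starved. Among TGF-beta ligands, receptors and thrombospondins, 2 of 25 members were higher and 9 lower with limits apart, and the median log2 change was -0.36. Thbs1, which activates latent TGF-beta, was at 228 FPKM fed and 56.6 FPKM starved and the activin subunit Inhba at 20.1 FPKM fed and 7.89 FPKM starved, while the receptors Tgfbr1 and Tgfbr2 were at 6.46 FPKM fed and 8.12 starved and 35.8 FPKM fed and 40.4 starved with overlapping limits.

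Receptor tyrosine kinases showed both directions, with 7 of 20 higher and 4 lower. The PDGF and FGF receptors Pdgfrb, Fgfr1 and Fgfr4 were higher, at 17.6 FPKM fed and 31.6 starved, 35 FPKM fed and 52.4 starved and 4.08 FPKM fed and 7.61 starved. Epha2, an ephrin receptor and ERK target, was lower at 68.8 FPKM fed and 27.5 FPKM starved. In the insulin and IGF list 7 of 28 members were higher and 3 lower with limits apart, and the median log2 change was 0.01. Igfbp5, an IGF binding protein, was at 247 FPKM fed and 462 FPKM starved, and the imprinted noncoding RNA H19 was at 325 FPKM fed and 142 FPKM starved. Of the Notch genes 4 of 18 were higher and 3 lower, with a median of 0.01. Notch2 was higher at 26 FPKM fed and 58.5 FPKM starved and the Notch target Hes1 lower at 36.6 FPKM fed and 15.9 FPKM starved. Of the Wnt genes 3 of 24 were higher and 4 lower, with a median of 0.23. These 12.5% and 16.7% stand beside 12.5% and 11.2% of all rows. The ligand Wnt10a was lower at 12.2 FPKM fed and 3.43 FPKM starved, and the highest log2 change was that of Wisp2, 1.58.

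**Figure D4:**
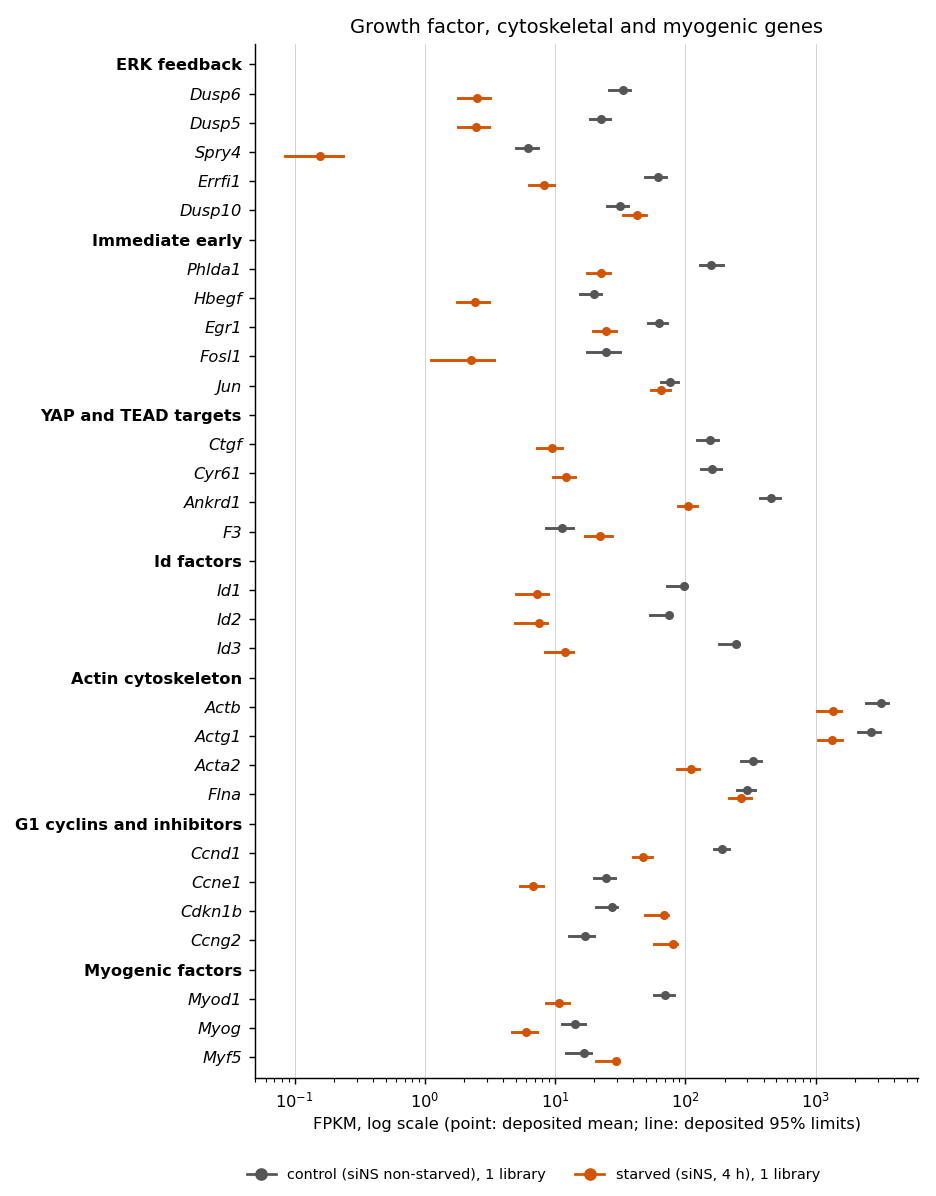
FPKM on a log scale for 28 genes of growth factor signalling, the cytoskeleton, the G1 phase and myogenic control, with the deposited mean as a point and the deposited 95% limits as a line. Most starved values (orange) lie left of the control, with Ccng2, Cdkn1b, F3 and Myf5 to the right and Jun, Flna and Dusp10 overlapping.

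Among cell cycle genes the lowest log2 changes were those of cyclins of the G1 phase. Ccnd1, the D-type cyclin that growth factors induce, was at 192 FPKM (166 to 218) fed and 47.4 FPKM (39.6 to 55.3) starved, and Ccnd3 at 93.3 FPKM fed and 45.6 FPKM starved. The E-type cyclins Ccne1 and Ccne2 were at 24.4 FPKM fed and 6.75 starved and 10.8 FPKM fed and 3.39 starved, and the phosphatase Cdc25a at 10.3 FPKM fed and 4.07 FPKM starved. These genes, which drive entry into S phase, were all lower with limits apart. Of the CDK inhibitors, Cdkn1b at 27.3 FPKM fed and 68.8 FPKM starved and Cdkn1a at 169 FPKM fed and 245 FPKM starved were higher, and the limits of Cdkn1c and Cdkn2c overlapped. The kinase Cdk4 was at 233 FPKM fed and 233 starved with overlapping limits. Over the list of cyclins, CDKs, their inhibitors and the Rb and E2F genes, 5 of 26 members were higher and 8 lower with limits apart, and the median log2 change was -0.08. Of DNA replication genes, 1 of 42 members was higher and 8 lower with limits apart, and the median log2 change was -0.18 (3 higher after rescaling). Lowest was Cdc6, which loads the helicase, at 10.02 FPKM fed and 4.48 FPKM starved. Of mitosis and kinetochore genes, 3 of 42 members were higher and 2 lower with limits apart, and the median log2 change was -0.16 (5 higher after rescaling by the upper quartile). The proliferation marker Mki67 was at 57.5 FPKM fed and 66.8 FPKM starved with overlapping limits. In the Myc network, Myc was at 27 FPKM fed and 27 FPKM starved with overlapping limits, and its antagonists Mnt, Mxi1, Mxd1 and Mxd4 were higher, Mnt at 11.3 FPKM fed and 26.9 FPKM starved and Mxi1 at 7.71 FPKM fed and 17.6 FPKM starved.

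Genes of ribosome assembly were lower, while ribosomal proteins had overlapping limits throughout. Of the genes of nucleolar assembly, 24 of 47 were lower and 0 higher, with a median of -0.55. Grwd1, a chaperone of ribosomal protein uL3, was at 20.4 FPKM (17.2 to 23.6) fed and 6.9 FPKM (5.61 to 8.17) starved, and Nolc1, a nucleolar phosphoprotein, at 44.9 FPKM fed and 17.5 FPKM starved. The box C/D proteins Nop56 and Nop58 were at 119 FPKM fed and 66.3 starved and 120.2 FPKM fed and 66.6 starved. None of the 74 cytosolic ribosomal proteins compared had limits apart in either direction, and their log2 changes ran from -0.39 for Rps27l to 0.31 for Rpl22l1. The deposited mean lay outside its own limits in at least 1 library for 32 of these 74. Ribosomal protein mRNAs carry a motif through which mTORC1 controls their translation, which these libraries do not measure.

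RNA polymerase genes and translation factors followed neither pattern as a whole. Of RNA polymerase I and III genes, 9 of 27 were lower and 2 higher, and the higher ones included Maf1, the repressor of polymerase III, at 41.9 FPKM fed and 84.2 FPKM starved. Of the translation factors, 4 of 47 were higher and 6 lower, with a median of -0.08. Those shares, 8.51% higher and 12.8% lower, stand beside 12.5% and 11.2% of all rows. Eif1 and Eif4a2 were higher at 639.6 FPKM fed and 1091 starved and 71.9 FPKM fed and 113 starved, and Eif4g1 and Eif5a lower at 171 FPKM fed and 102 starved and 819 FPKM fed and 546 starved. Polyamine and nucleotide synthesis had 8 of 28 members lower and 0 higher. Srm, spermidine synthase, was at 87.9 FPKM fed and 37.4 FPKM starved, and Odc1, the first enzyme of the route, at 103 FPKM fed and 61.8 FPKM starved. Hosts of snoRNAs were higher in part, with Snhg12 at 30.5 FPKM fed and 103 FPKM starved and Snhg1 at 68.5 FPKM fed and 154 FPKM starved, rows whose mean lay outside its limits in both libraries, and Snhg5 at 38.5 FPKM fed and 87.7 FPKM starved.

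Metabolic genes differed in small sets. Of cholesterol synthesis and SREBP genes, 2 of 26 members were higher and 7 lower with limits apart, and the median log2 change was -0.35. Fdps, which makes farnesyl diphosphate, was at 83.7 FPKM (68.5 to 99) fed and 43.6 FPKM (35.1 to 52.1) starved and Hsd17b7, an enzyme of the later route, at 5.79 FPKM fed and 2.61 FPKM starved, while Insig1 and Insig2, which hold SREBP in the endoplasmic reticulum, were higher at 14.8 FPKM fed and 26.2 starved and 20.6 FPKM fed and 32 starved. Among fatty acid genes, Cpt1a, which admits fatty acids to mitochondria, was at 28.5 FPKM fed and 55.7 FPKM starved, the lipid droplet protein Plin2 at 82.9 FPKM fed and 149.99 FPKM starved and the phosphatidate phosphatase Lpin1 at 1.63 FPKM fed and 4.57 FPKM starved. Of glycolysis, pyruvate and hypoxia genes, 5 of 42 were higher and 6 lower, with a median of -0.01. These 11.9% and 14.3% stand beside 12.5% and 11.2% of all rows. The kinases that turn off pyruvate dehydrogenase were higher in Pdk2 and Pdk4, at 4 FPKM fed and 13.9 starved and 16.6 FPKM fed and 29.5 starved, and had overlapping limits in Pdk1 and Pdk3. Hk2 was at 14.4 FPKM fed and 7.96 FPKM starved and Ldha at 748 FPKM fed and 527 FPKM starved, both lower with limits apart. Oxidative phosphorylation subunits had 2 of 75 lower and 0 higher (1 lower after rescaling), though 8 had a log2 change above 0, and the mean lay outside its limits in at least 1 library for 43.

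Stress genes outside the amino acid response differed in both directions. In the unfolded protein response, Herpud1, an endoplasmic reticulum degradation protein, was at 28.2 FPKM fed and 119 FPKM starved, whereas the chaperone Hspa5, the factor Xbp1 and Creld2 were lower, at 334 FPKM fed and 237 starved, 54.9 FPKM fed and 35.2 starved and 45.6 FPKM fed and 29.2 starved. The limits of Hspa5 overlapped after rescaling by the upper quartile. Over the list 3 of 36 members were higher and 5 lower with limits apart, and the median log2 change was -0.18. These 8.33% and 13.9% stand beside 12.5% and 11.2% of all rows. Of the heat shock chaperones, 1 of 32 was higher and 7 lower, and the higher one was the mitochondrial Hspa9 at 281 FPKM fed and 455 FPKM starved. Of Nrf2 and its antioxidant targets, 4 of 28 members were higher and 1 lower (0 lower after either rescaling). The 14.3% that were higher is near the 12.5% of all rows. Hmox1 was higher at 33.1 FPKM fed and 59.9 FPKM starved, while Nqo1 was at 26.9 FPKM fed and 25.3 FPKM starved with overlapping limits. Of p53 targets, 9 of 31 were higher and 6 lower, with a median of 0.28. Bbc3 and Eda2r were at 5.77 FPKM fed and 15.7 starved and 7.53 FPKM fed and 32.1 starved, Cdkn1a was at 169 FPKM fed and 245 starved, and Mdm2 was at 37.6 FPKM fed and 48.9 starved with overlapping limits. Within the Gadd45 family, Gadd45a was higher, Gadd45g lower at 79.4 FPKM fed and 26.7 FPKM starved and Gadd45b at 19.1 FPKM fed and 15.3 FPKM starved with overlapping limits. In the Bcl2 family 4 of 18 members were higher and 5 lower, with a median of -0.14, and the BH3-only genes were split. Of these, Bcl2l11, Bmf and Bbc3 were higher, Bmf at 1.28 FPKM fed and 5.48 FPKM starved, and Bid was lower at 36 FPKM fed and 20.1 starved. Bok was lower as well at 70.3 FPKM fed and 30.7 starved, and so was the survival gene Bcl2l1 at 28.2 FPKM fed and 18.7 FPKM starved.

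Myogenic factors had values in both directions. Myod1, the master factor of the muscle lineage, was at 70.1 FPKM (57.6 to 82.3) fed and 10.7 FPKM (8.49 to 12.8) starved. Myog, which starts differentiation, was at 14.2 FPKM fed and 6.02 FPKM starved, and Myf5, the relative of Myod1 in proliferating precursors, was higher at 16.8 FPKM fed and 29.6 FPKM starved. Pax7, the satellite cell factor, was at 7.92 FPKM fed and 9.99 FPKM starved with overlapping limits. The cofactor Eya1 and the repressor Snai2 were higher at 6.67 FPKM fed and 25.6 starved and 31.8 FPKM fed and 69.4 starved, and Snai1 and Twist2 were lower at 23.7 FPKM fed and 11.9 starved and 26.5 FPKM fed and 14.7 starved. Over the myogenic list 10 of 22 members were higher and 5 lower with limits apart, and the median log2 change was 0.34. Of the sarcomere and excitation genes, 1 of 33 was higher and 5 lower, with a median of -0.18 (2 higher after either rescaling), with Tnnt2, cardiac troponin T, lower at 88.4 FPKM fed and 32.4 FPKM starved.

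The labelled cell type was checked against markers. All 8 myoblast markers found as single rows reached 1 FPKM, with a summed level of 912 FPKM fed and 802 FPKM starved. The highest single marker made up 485 FPKM of the fed and 403 FPKM of the starved sum. Of the 8, 1 was higher and 2 lower with limits apart (1 lower after rescaling by the upper quartile), and Myod1 had the lowest log2 change, -2.60. None of 8 endothelial markers reached 1 FPKM (sums of 0.327 and 0.435 FPKM), and Emcn was at 0 in both libraries. Of 9 macrophage and blood markers 2 did, Cd14 and Cd68, with summed levels of 11.1 and 15.5 FPKM, and Emr1 and Tyrobp were at 0. Of 7 adipocyte markers 2 did, Pparg and Lpl, with sums of 16.2 and 15.9 FPKM, and Lep and Plin1 were at 0. Of 9 neural markers 2 did, Tubb3 and Mbp, with sums of 91.0 and 55.1 FPKM, and Sox10 was at 0. Of 9 bone and cartilage markers 4 did, with sums of 2949 and 1580 FPKM, nearly all Spp1, and Ibsp was at 0. Of 9 fibroblast and mesenchymal markers 6 did, with sums of 7466 and 6674 FPKM, chiefly Vim and S100a4, and Dpt, Lum and Thy1 did not. In a bulk library, fewer cells of a kind and less RNA per cell cannot be told apart.

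Matrix and adhesion genes were lower more often than higher. Of collagens, 1 of 17 was higher and 8 lower, with a median of -0.32, with Col8a1 at 28 FPKM fed and 9.82 FPKM starved and Col4a1 at 78.5 FPKM fed and 44.1 FPKM starved, and the fibrillar Col1a2 and Col3a1 at 239 FPKM fed and 192 starved and 249.7 FPKM fed and 213 starved with overlapping limits. Of matrix proteases, inhibitors and crosslinking enzymes, 3 of 33 were higher and 11 lower, with a median of -0.19. The urokinase Plau and its receptor Plaur were at 123 FPKM fed and 46.8 starved and 89.9 FPKM fed and 39.3 starved, the hyaluronan synthase Has2 at 8.67 FPKM fed and 1.48 FPKM starved and Timp1 at 379 FPKM fed and 205 FPKM starved, and Mmp2 was higher at 59.8 FPKM fed and 110.2 FPKM starved. Of integrins and focal adhesion genes, 3 of 32 were higher and 11 lower, with a median of -0.35. The tensin Tns3 was at 39.95 FPKM fed and 17.6 FPKM starved and Itgb1, the common beta subunit, at 238 FPKM fed and 156 FPKM starved, while fibronectin, Fn1, was at 589 FPKM fed and 590.1 starved with overlapping limits. Secreted signals were split: Cx3cl1, Csf1 and Ccl2 were lower at 32.1 FPKM fed and 5.14 starved, 132 FPKM fed and 50.5 starved and 21.1 FPKM fed and 3.28 starved, and Cxcl12 and Il15 higher at 10.2 FPKM fed and 30.4 starved and 0.554 FPKM fed and 3.8 starved.

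Several clock genes were higher. Dbp, a D-box activator, was at 3.88 FPKM (2.47 to 5.31) fed and 19.2 FPKM (14.6 to 23.7) starved, its relative Tef at 14.4 FPKM fed and 31.1 FPKM starved, and Nr1d2 and Nr1d1, the Rev-erb repressors, were at 14.9 FPKM fed and 47.7 starved and 26 FPKM fed and 48.6 starved. Per3 was at 1.91 FPKM fed and 6.21 FPKM starved, whereas the activators Clock and Arntl were at 19 FPKM fed and 14.8 starved and 9.97 FPKM fed and 7.46 starved with overlapping limits and Cry1 was lower at 6.49 FPKM fed and 4.07 FPKM starved (overlapping after rescaling). Over the clock list 9 of 18 members were higher and 1 lower with limits apart, and the median log2 change was 0.52. Whether the change of medium moved the clock was not tested. Among chromatin enzymes, 10 of 38 were higher and 1 lower (0 lower after either rescaling). Ezh1, a methyltransferase of resting cells, was at 7.32 FPKM fed and 24.9 FPKM starved, Hdac11 at 1.46 FPKM fed and 5.08 FPKM starved and the demethylase Kdm3a at 9.53 FPKM fed and 20.5 FPKM starved, while Ezh2 was at 44.3 FPKM fed and 57.1 starved with overlapping limits.

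The proteins that the study mapped, Foxk1 and Sin3A, are known repressors, and Foxk1 has been linked to autophagy genes in fed muscle cells. Of the Foxk and Sin3 complex genes, 2 of 20 were higher and 3 lower, with a median of -0.14. These 10% and 15% stand beside 12.5% and 11.2% of all rows. Foxk1 had a log2 change of 0.76 and Sin3a of 0.57, both with limits apart, and Foxk2 one of -0.40 with limits overlapping. The deacetylases Hdac1 and Hdac2, shared with other complexes, were lower at 95.1 FPKM fed and 63.2 starved and 82.5 FPKM fed and 55.4 starved, the latter with limits that overlapped after rescaling, and the subunit Brms1 was lowest at 30.9 FPKM fed and 17.7 FPKM starved.

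**Figure D5:**
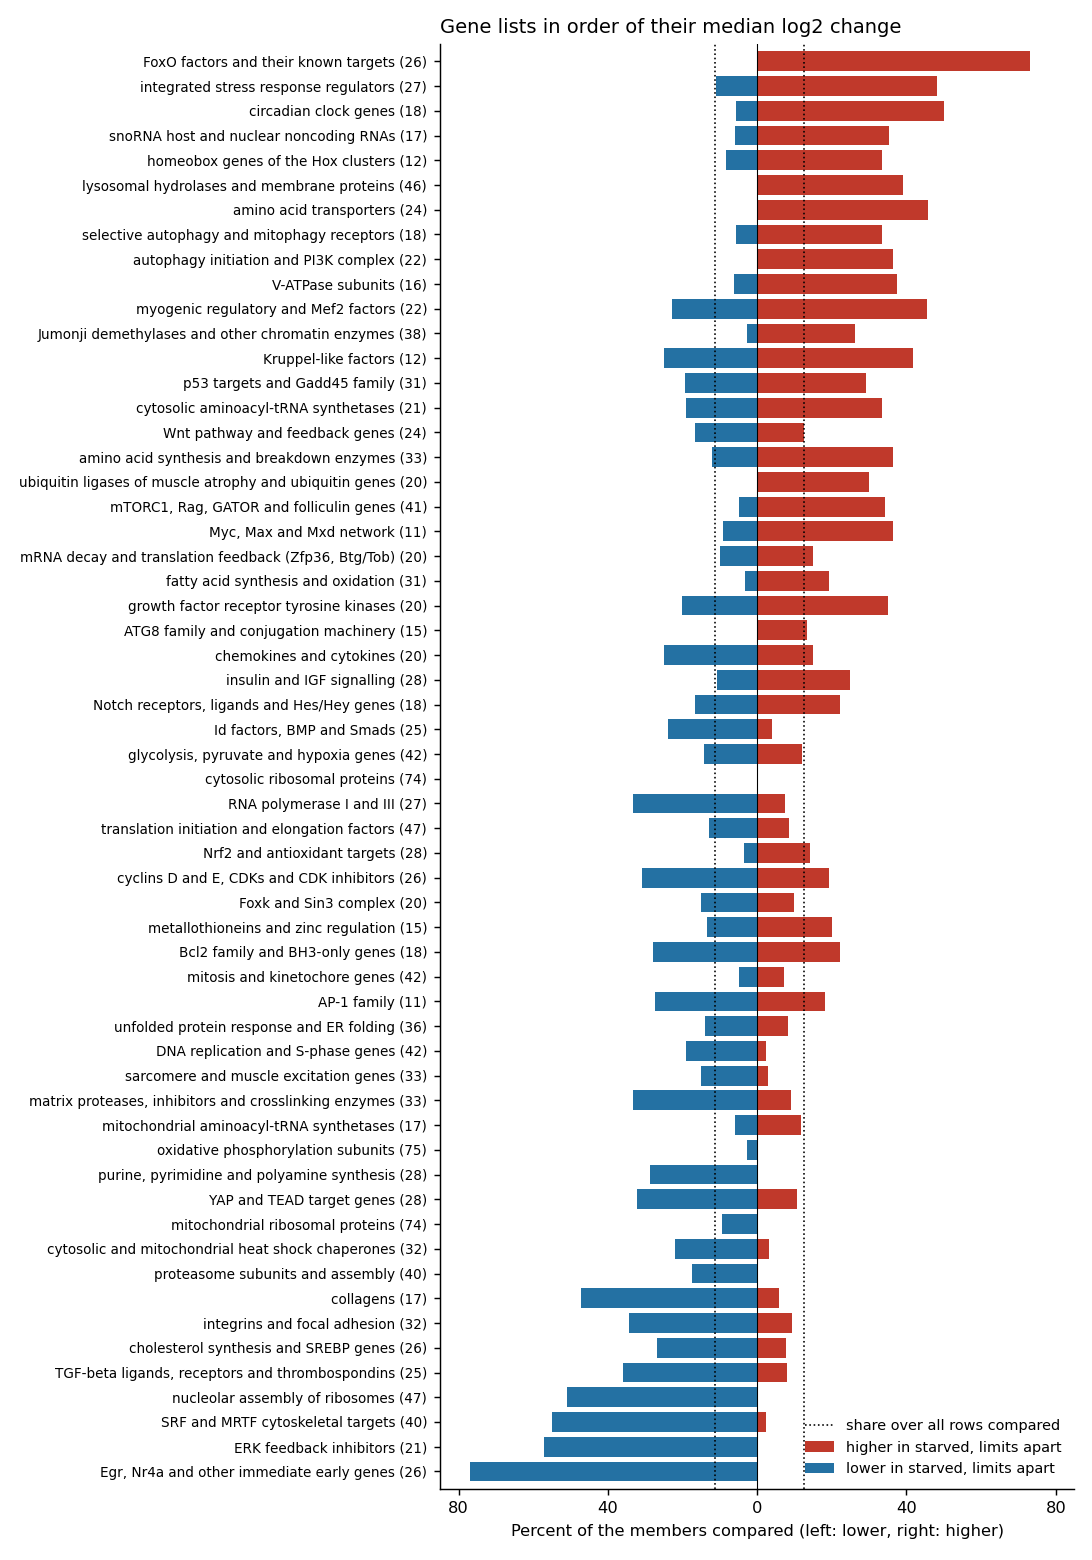
For each list with at least 10 members compared (number in brackets), the bar to the right gives the percentage of members higher in the starved library with limits apart and the bar to the left the percentage lower. Dotted lines mark the shares over all rows, 12.5% and 11.2%. Lists are ordered by their median log2 change, from the immediate early genes at the bottom to the FoxO factors and targets at the top.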

How the data were processed

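Gene levels in C2C12 cells were deposited by the authors as mean FPKM with 95% limits per gene, per the file headers. The submitters' processing notes name Cuffdiff, Cufflinks 2.1.1, Bowtie2 2.1.0, TopHat2 2.0.9 and the build mm9, with no role for each. The method behind the limits, the annotation and the read depth were not stated in the labels or tables used. Of 22989 rows, 364 with combined symbols, 388 of 161 repeated symbols and 638 short RNAs were left out (1302 in all, some under several rules), and 10727 single rows stayed under 1 FPKM in both libraries. Log2 changes used a pseudocount of 1 FPKM, and calls used the deposited limits (Python 3.11.15, pandas 2.3.3, numpy 2.4.6, matplotlib 3.10.9). The code of the comparison was run on simulated rows at 5 FPKM or more with known folds and noise drawn from the deposited limits. That run held no spread between cultures, so it checks the code and not the calls.

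Members were grouped in 68 lists, of which 1639 genes were compared and 71 stand in several lists. The lists and the comparison were chosen with earlier results of these data known, so no list is independent evidence of its direction. Named genes were the 15 highest and 15 lowest changes among rows with limits apart and 5 FPKM or more in at least 1 library, and within lists those with the largest changes or highest levels. Alternatives were other pseudocounts, filters, scalings and thresholds. Promoters were taken from RefSeq on GRCm38.p6, a table of 32851 sequences of 27025 genes, in which 8750 of the 10960 rows found a match, to 8748 distinct genes. A few genes of the lists are not reported here.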

Additional observations from a re-analysis of the deposited data

How the results depend on the processing

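No paired analysis was possible because each group had 1 sample, and no library could be left out for the same reason. Of 30 counts over all rows under an alternative, 25 stayed within 1.5 times the value reported. The 318 rows at least 2-fold higher became 519 with a pseudocount of 0.1 FPKM, 119 with one of 5 FPKM and 1114 at 1.5-fold. The 270 rows at least 2-fold lower became 125 with a pseudocount of 5 FPKM and 983 at 1.5-fold. Of the list counts, 628 stayed within 1.5 times and 42 did not. Among lists with a median of at least 0.1 in size the sign changed in 4 cases: at 5 FPKM or more the median was -0.0001 for the Myc network, 0.0389 for the Bcl2 family and 0.651 for histones, and with no filter 0.0008 for histones. The change of Vldlr was 3.82 with a pseudocount of 0.1 FPKM and 1.36 with one of 5 FPKM, that of Spry4 -4.62 and -1.12. Scaling by the median ratio or the upper quartile shifted log2 changes by up to 0.04 or 0.05 and moved the share of higher genes among those with limits apart from 52.8% to 58.0% or 59.7%. The median of the cytosolic ribosomal proteins, -0.02, became 0.02 or 0.03. Under at least 1 of the 2 scalings, 39 genes of the lists that were lower overlapped and 30 that overlapped were higher. Depth limits scarce transcripts most, and its size is unknown.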

Other observations

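Some gene families without a list of their own are given here because they stood out among the changed rows, so they were picked with their values known. Single members also stand in a list, such as Ypel3 in the FoxO list and Tubb3 among the neural markers. The SR proteins, which steer splicing, had 6 of 10 members lower with limits apart, none higher and a median log2 change of -1.01. Srsf7 was at 70.6 FPKM (55 to 81.7) fed and 19.3 FPKM (15.4 to 26.1) starved, Srsf2 at 211 FPKM fed and 78.2 FPKM starved and Srsf3 at 143 FPKM fed and 59.1 FPKM starved, while Srsf11 was at 40.8 FPKM fed and 43.3 FPKM starved with overlapping limits. The hnRNP genes, whose products package new transcripts, had 5 of 15 lower and none higher, with a median of -0.30, and Hnrnpab was at 396 FPKM fed and 184 FPKM starved. The tubulins had 6 of 10 lower and none higher, with a median of -0.66. Tubb6 was at 178 FPKM fed and 65.1 FPKM starved and Tubb4b at 281 FPKM fed and 112 FPKM starved.

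All 4 Ypel genes compared, a family of small zinc-binding proteins of largely unknown role, were higher with limits apart. Ypel3 was at 14.6 FPKM (11.3 to 18.3) fed and 59.7 FPKM (46.9 to 72.4) starved, Ypel4 at 1.32 FPKM fed and 7.02 FPKM starved, Ypel2 at 1.37 FPKM fed and 6.46 FPKM starved and Ypel5 at 17.4 FPKM fed and 37.6 FPKM starved, and the mean of Ypel5 lay outside its own limits in both libraries. The 261 zinc finger genes named Zfp had 32 members higher, 12.3% beside 12.5% of all rows, and 11 lower, 4.21% beside 11.2%. Of the rows at least 2-fold higher or lower with limits apart, 220 of 315 and 166 of 262 stand in none of the lists, so the groups described cover the smaller share of the large changes.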
